A study of Mus musculus with 16 samples.

Results

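The genes described here are the nuclear-encoded genes of oxidative phosphorylation measured in the striatum of R6/1 mice, a model of Huntington’s disease, and of their wild-type littermates. They were chosen by name: every protein-coding gene whose symbol begins with Nduf, Uqcr, Atp5 or Cox4 to Cox8, together with Sdha, Sdhb, Sdhc, Sdhd, Cyc1 and Cycs. Of 96 such entries among the 55450 genes of the count table, 92 reached a limit of 10 counts in 4 or more libraries and were kept, as were 19363 genes of the whole table. R6/1 mice carry a transgene with exon 1 of human HTT and an expanded CAG repeat. All 16 mice were males on a C57BL/6J background, sampled at 14 weeks of age, and each library holds the striatal RNA of 1 mouse. The study sorted each genotype by motor performance and body weight, giving 4 “good” and 4 “poor” mice of each genotype, 8 R6/1 and 8 wild-type (wt). “Good” and “poor” are ranks within a genotype, and the tissue is whole striatum, in which fewer cells of a type and less RNA per cell cannot be told apart.

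Oxidative phosphorylation takes place in the inner mitochondrial membrane. Complexes I (NADH dehydrogenase) and II (succinate dehydrogenase) pass electrons to ubiquinone, complex III (the cytochrome bc1 complex) passes them to cytochrome c, and complex IV (cytochrome c oxidase) passes them to oxygen. Complexes I, III and IV pump protons across the membrane, and complex V (ATP synthase) uses the gradient to make ATP. Most subunits are encoded in the nucleus, a smaller set in the mitochondrial genome, and complex II has nuclear subunits only. Neurons of the striatum depend heavily on this pathway, and inhibitors of complex II are used in animals to produce striatal lesions.

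The 92 genes comprised 36 subunits of complex I (7 core and 29 accessory), 4 of complex II, 10 of complex III with cytochrome c, 16 of complex IV, 16 of complex V, and 10 assembly or regulatory factors. All 92 reached 10 counts in every library. The lowest genes kept were Cox7a1 (median 22.5 counts), Ndufa4l2 (45), Cox4i2 (60), Cox6b2 (71) and Cox6a2 (74). Just outside the limit were Cox7b2 (median 7 counts, with 10 or more in 3 libraries) and Cox8b (median 4), and Cox8c and a second Atp5o entry were listed at 0. Most of these low genes are isoforms known mainly from muscle, testis or blood vessels. The 13 mitochondrially encoded subunits were listed at 0 in every library, so the comparison covers the nuclear share of each complex only. Usmg5, the symbol under which the annotation holds the complex V gene Atp5md, did not match the name rule.

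Total counts ranged from 16155356 to 24897354 per library. The column headers number the libraries, and those numbered 1 to 8 (16155356 to 20250680 counts) were all shallower than those numbered 9 to 16 (21529188 to 24897354). All 4 R6/1 “good” libraries fell in the first set, with 1 R6/1 “poor”, 2 wild-type “good” and 1 wild-type “poor” library. What the numbering stands for is not stated. The labels were checked against 12 genes of medium spiny neurons, the principal cells of the striatum, such as Ppp1r1b and Penk. Their summed level was 6148 to 9259 CPM (counts scaled to a common library size) in the 8 wild-type mice and 1958 to 4136 in the 8 R6/1 mice, with no overlap, and all 12 fell in R6/1. The summed level of 6 cortical glutamatergic markers varied widely within each group. It was 9.17 to 675 CPM in wild-type “good”, 68.6 to 403 in wild-type “poor”, 18.2 to 484 in R6/1 “good” and 34.4 to 767 in R6/1 “poor” mice. The part of such tissue in the values of the 92 genes was not tested.

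Levels were compared between genes only per length, as CPM per kilobase of the principal transcript, averaged over the 8 wild-type mice. Complex IV subunits had the highest median (217 CPM per kilobase), followed by complex V (198), complex III with cytochrome c (107), complex II (93.8), complex I (93.6) and the factors (18.1). Atp5b, the catalytic beta subunit of ATP synthase, stood highest at 678 and Cox4i1, the common isoform of complex IV subunit 4, next at 676. At the other end of complex IV were Cox4i2 (4.54), Cox6b2 (4.22), Cox7a1 (2.73) and Ndufa4l2 (2.51). Each ubiquitous isoform thus stood far above its alternative: Cox6a1 at 376 against Cox6a2 at 5.99, and Ndufa4 at 377 against Ndufa4l2. The coefficient of variation over the 8 wild-type mice ranged from 3.66% to 34.8% with a median of 8.44%, and small changes could therefore pass the test.

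Promoter windows, 250 bases before to 50 bases after the RefSeq start on GRCm38.p6, were given for 73 of the 92 genes. Many genes of this pathway are known targets of nuclear respiratory factor 1 (NRF1), and 3 motifs were searched on both strands: the palindromic consensus of NRF1, the CCAAT box of NF-Y and the consensus of YY1. The NRF1 letters were present in 19 of the 73 windows (26.0%) and in 5.19% of all 27025 windows, the YY1 letters in 6 (8.22%, against 0.995%), and the short NF-Y letters in 33 (45.2%, against 41.1%). The 27025 windows outnumber the 19363 genes tested, so they include genes below the count limit in this tissue. They are therefore not a set of genes expressed like the 73. Stretches upstream of the start are shown for Sdha and Cox6b2, which rose in R6/1, and for Ndufb4, Ndufa1, Cox7c and Uqcr11, which fell. Ndufb4 was added for its motifs after its values were seen. Each ends before the RefSeq or GENCODE start, whichever lies further upstream, and is written 5′ to 3′ on the gene’s own strand, the minus strand in each case. Capitals mark the motif letters. The stretches lie at chr13:74350281-74350430 (Sdha), chr7:4753095-4753244 (Cox6b2), chr16:37654454-37654603 (Ndufb4), chrX:37191239-37191388 (Ndufa1), chr13:86046905-86047045 (Cox7c) and chr10:80406831-80406980 (Uqcr11).
Sdha: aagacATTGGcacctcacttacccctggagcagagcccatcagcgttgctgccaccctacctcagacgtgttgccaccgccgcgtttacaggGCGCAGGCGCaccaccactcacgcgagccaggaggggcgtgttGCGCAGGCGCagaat
Cox6b2: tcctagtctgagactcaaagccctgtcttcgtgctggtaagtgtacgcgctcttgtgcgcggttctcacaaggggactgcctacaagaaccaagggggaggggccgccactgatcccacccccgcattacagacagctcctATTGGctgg
Ndufb4: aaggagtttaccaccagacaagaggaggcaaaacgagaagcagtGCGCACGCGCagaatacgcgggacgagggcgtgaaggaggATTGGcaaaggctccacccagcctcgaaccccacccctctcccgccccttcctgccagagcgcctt
Ndufa1: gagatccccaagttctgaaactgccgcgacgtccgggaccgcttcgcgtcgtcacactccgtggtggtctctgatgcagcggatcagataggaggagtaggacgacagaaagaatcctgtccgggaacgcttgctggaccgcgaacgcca
Cox7c: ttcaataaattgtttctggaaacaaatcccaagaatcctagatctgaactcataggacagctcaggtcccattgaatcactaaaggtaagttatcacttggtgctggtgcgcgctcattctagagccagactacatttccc
Uqcr11: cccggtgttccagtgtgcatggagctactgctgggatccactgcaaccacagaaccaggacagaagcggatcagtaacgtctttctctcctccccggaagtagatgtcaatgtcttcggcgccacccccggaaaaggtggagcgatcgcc
The Sdha stretch held the NRF1 letters 2 times and the CCAAT letters, read on the other strand as ATTGG, 1 time. The Ndufb4 stretch held each 1 time and the Cox6b2 stretch the NF-Y letters 1 time. None of the 3 motifs was found in the windows of Ndufa1, Cox7c or Uqcr11. Among the genes with a window, 1 of 14 that fell, 1 of 4 that rose and 17 of 55 that passed in neither direction held the NRF1 letters. For the NF-Y letters these counts were 5, 4 and 24, and for the YY1 letters 2, 0 and 4. These are matches of letters, not binding data.

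The first question was how the pathway differed between all 8 R6/1 and all 8 wild-type mice. Of the 92 genes, 7 rose and 18 fell at an adjusted p under 0.05 (edgeR quasi-likelihood test), while 34.2% of all genes tested passed in either direction, 17.2% as higher and 17.0% as lower. The changes were small: the median absolute log2 fold change was 0.085 over the 92 genes and 0.20 over all genes, and 89 of the 92 lay within 0.35. The median log2 fold change was -0.027, against 0.021 over all genes, and 55 of the 92 were negative, against 47.1% of all genes. Markers of several cell types were also lower: the summed level of 7 astrocyte markers was 5101 to 5816 CPM in wild-type and 3314 to 3950 in R6/1 mice, that of 6 microglia markers 445 to 533 and 328 to 431, and that of 6 oligodendrocyte markers 9595 to 14262 and 7118 to 11525. Of these lists 5, 6 and 3 markers fell, and their part in the values of the 92 genes was not tested. By complex, the genes that rose and fell numbered 1 and 4 of 36 for complex I, 1 and 0 of 4 for complex II, 2 and 1 of 10 for complex III with cytochrome c, 1 and 6 of 16 for complex IV, 1 and 5 of 16 for complex V, and 1 and 2 of 10 for the factors. Complex IV had the lowest median (-0.11, with 14 of 16 negative), and the others lay between -0.019 and 0.038. The complex IV genes had principal transcripts of 393 (Cox7a1) to 1001 nt (Cox7b), and the part of length in their median was not tested. Without R6/1 “good” replicate 4 or R6/1 “poor” replicate 2 the number that fell was 11, and without wild-type “poor” replicate 3 the number that rose was 4. Only 2 of the 92 genes, Sdha and Ndufa1, had no overlap between the genotypes, against 9.07% of all genes.

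**Figure D1:**
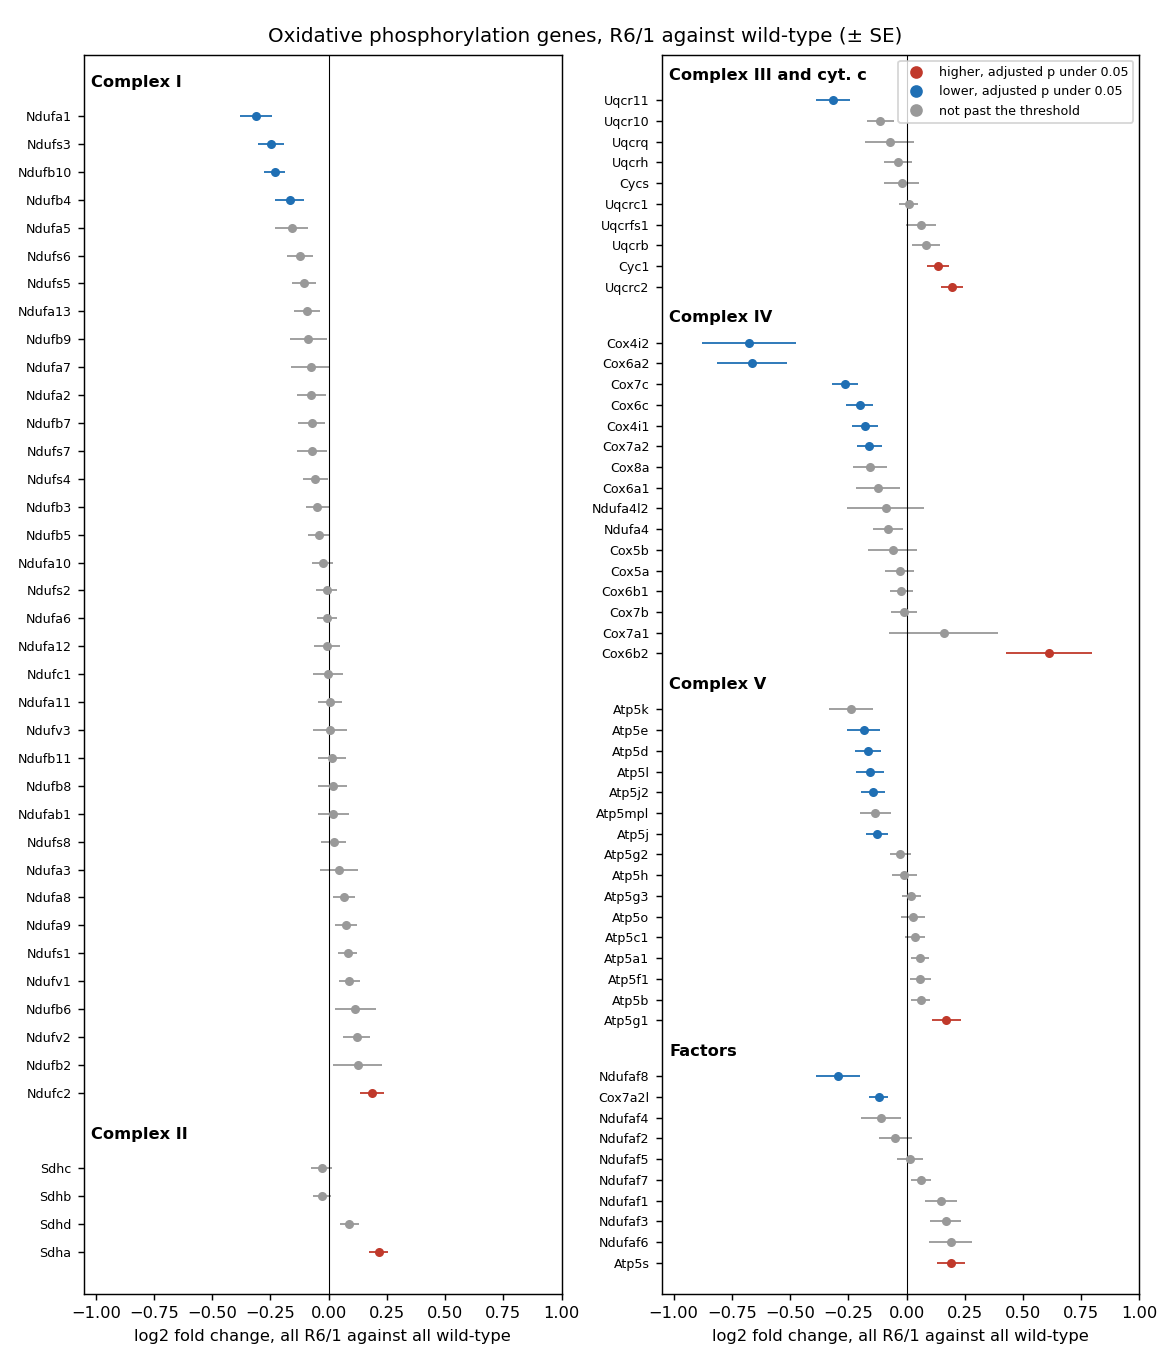
Log2 fold change of each of the 92 genes in the 8 R6/1 against the 8 wild-type mice (x axis, with SE bars), grouped by complex, with genes past the adjusted p threshold in red (higher) or blue (lower). Most points lie within 0.35 of 0, and 14 of the 16 complex IV genes lie to the left of 0.

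In complex I, which oxidises NADH, the 3 genes with the smallest adjusted p among those that fell were Ndufb10, Ndufa1 and Ndufs3. Ndufa1, a short accessory subunit of the membrane arm encoded on the X chromosome, was at 70.6, 79.7, 69.7 and 60.4 CPM in wild-type “good”, 59.6, 65.2, 60.7 and 60.2 in wild-type “poor”, 54.5, 55.3, 48.6 and 53.3 in R6/1 “good”, and 54.1, 44.2, 54.8 and 58.6 in R6/1 “poor” mice. Every R6/1 mouse was below every wild-type mouse, and the R6/1 groups overlapped each other. Its log2 fold change was -0.31 ± 0.067 (SE, n = 8 and 8, adjusted p = 0.00154). Ndufb10, another accessory subunit of the membrane arm, fell from 113 to 136 CPM in wild-type to 103 to 116 in R6/1 mice (log2 fold change -0.23 ± 0.046, adjusted p = 0.000804). Ndufs3, a core subunit of the arm that carries the iron-sulfur clusters, fell from 109 to 135 to 87.8 to 110 CPM (log2 fold change -0.25 ± 0.056, adjusted p = 0.00215). For both, the ranges of the genotypes touched only at their edges. Ndufc2, a membrane arm subunit, was the 1 gene of complex I that rose, from 57.4 to 72.4 CPM in wild-type to 67.5 to 80.5 in R6/1 mice (log2 fold change 0.19 ± 0.051, adjusted p = 0.00858). The remaining 6 core subunits did not pass the threshold. Ndufv2 had the largest positive value of these, 0.12 ± 0.058 (adjusted p = 0.12), and was picked after its value was seen.

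Sdha, the flavoprotein subunit of complex II that oxidises succinate, had the smallest adjusted p of the 92 genes. Its levels were 493, 470, 502 and 450 CPM in wild-type “good”, 469, 463, 464 and 462 in wild-type “poor”, 583, 556, 541 and 517 in R6/1 “good”, and 558, 566, 552 and 505 in R6/1 “poor” mice. The lowest R6/1 mouse was above the highest wild-type mouse, and the R6/1 groups overlapped. The log2 fold change was 0.21 ± 0.041 (1.16-fold, n = 8 and 8, adjusted p = 0.000509). The other subunits did not pass the threshold: Sdhd, a membrane anchor, had a log2 fold change of 0.09 ± 0.042 (adjusted p = 0.11), Sdhb, the iron-sulfur subunit, -0.027 ± 0.039 (adjusted p = 0.62), and Sdhc, the other anchor, -0.030 ± 0.046 (adjusted p = 0.65). The flavoprotein was therefore the 1 subunit of its complex past the threshold. Whether its change differed from those of its partners was not tested.

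In complex III, Uqcrc2, a core protein, rose from 143 to 171 CPM in wild-type to 161 to 197 in R6/1 mice (log2 fold change 0.20 ± 0.049, adjusted p = 0.00475), and Cyc1, the cytochrome c1 that hands electrons to cytochrome c, rose by 0.14 ± 0.049 on the log2 scale (adjusted p = 0.037). Uqcr11, a very small subunit, fell from 86.5 to 118 CPM to 68.0 to 95.4 (log2 fold change -0.32 ± 0.073, adjusted p = 0.00269). Subunits of the same complex thus passed the threshold in opposite directions. Cycs, cytochrome c itself, had a log2 fold change of -0.021 ± 0.076 (adjusted p = 0.86).

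In complex IV, the genes that fell included abundant subunits and scarce isoforms. Cox7c, a small subunit, was at 161, 172, 181 and 152 CPM in wild-type “good”, 146, 166, 140 and 153 in wild-type “poor”, 122, 133, 138 and 123 in R6/1 “good”, and 128, 132, 133 and 150 in R6/1 “poor” mice. Only the highest R6/1 “poor” mouse reached into the wild-type range, and the log2 fold change was -0.27 ± 0.057 (adjusted p = 0.00149). Cox6c (-0.20 ± 0.058, adjusted p = 0.012), Cox4i1 (-0.18 ± 0.056, adjusted p = 0.0192) and Cox7a2 (-0.16 ± 0.055, adjusted p = 0.0311) fell by similar amounts. Cox6a1 (-0.12 ± 0.095, adjusted p = 0.34), Cox6b1 (-0.022 ± 0.048, adjusted p = 0.75), Cox7b (-0.011 ± 0.054, adjusted p = 0.89), Cox8a (-0.16 ± 0.073, adjusted p = 0.11) and Ndufa4 (-0.080 ± 0.064, adjusted p = 0.36) did not pass the threshold.

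The scarce isoforms Cox6a2, Cox6b2 and Cox4i2 showed the largest fold changes of the set, on counts of 26 to 105 per library. Cox4i2 fell (-0.68 ± 0.20, adjusted p = 0.0145) and is described with the R6/1 “poor” mice. Cox6a2, the isoform of subunit 6a known from heart and skeletal muscle and, in brain, from parvalbumin interneurons, was at 3.91, 4.61, 3.82 and 4.57 CPM in wild-type “good”, 3.68, 3.63, 4.29 and 4.09 in wild-type “poor”, 2.16, 2.16, 3.56 and 1.80 in R6/1 “good”, and 2.01, 3.09, 2.15 and 3.68 in R6/1 “poor” mice. Only 1 R6/1 mouse, in the “poor” group, reached the wild-type range, and the log2 fold change was -0.66 ± 0.15 (adjusted p = 0.00224). A list of 4 striatal interneuron markers (Pvalb, Sst, Npy and Chat), none with a median count of 0, had a summed level of 214 to 299 CPM in wild-type and 122 to 180 in R6/1 mice, and 3 of the 4 fell. Pvalb itself had a log2 fold change of -0.62 (adjusted p = 0.23). The part of these cells in the Cox6a2 value was not tested.

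Cox6b2, known from testis, was the 1 complex IV gene that rose. It was at 2.77, 2.72, 1.68 and 3.71 CPM in wild-type “good”, 2.22, 1.79, 2.98 and 1.87 in wild-type “poor”, 3.58, 4.32, 5.26 and 3.75 in R6/1 “good”, and 3.63, 4.44, 2.96 and 2.29 in R6/1 “poor” mice, a log2 fold change of 0.61 ± 0.18 (adjusted p = 0.0149). The genotypes overlapped, mainly through the R6/1 “poor” mice. In wild-type mice alone, libraries 1 to 8 averaged 1.31 times the level of libraries 9 to 16, with overlap (2.22 to 3.71 against 1.68 to 2.98 CPM). With the library set as a term, the value was 0.49 ± 0.16 (adjusted p = 0.0218). Cox7a1, the muscle isoform of subunit 7a, did not pass the threshold (0.16 ± 0.23, adjusted p = 0.63).

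**Figure D2:**
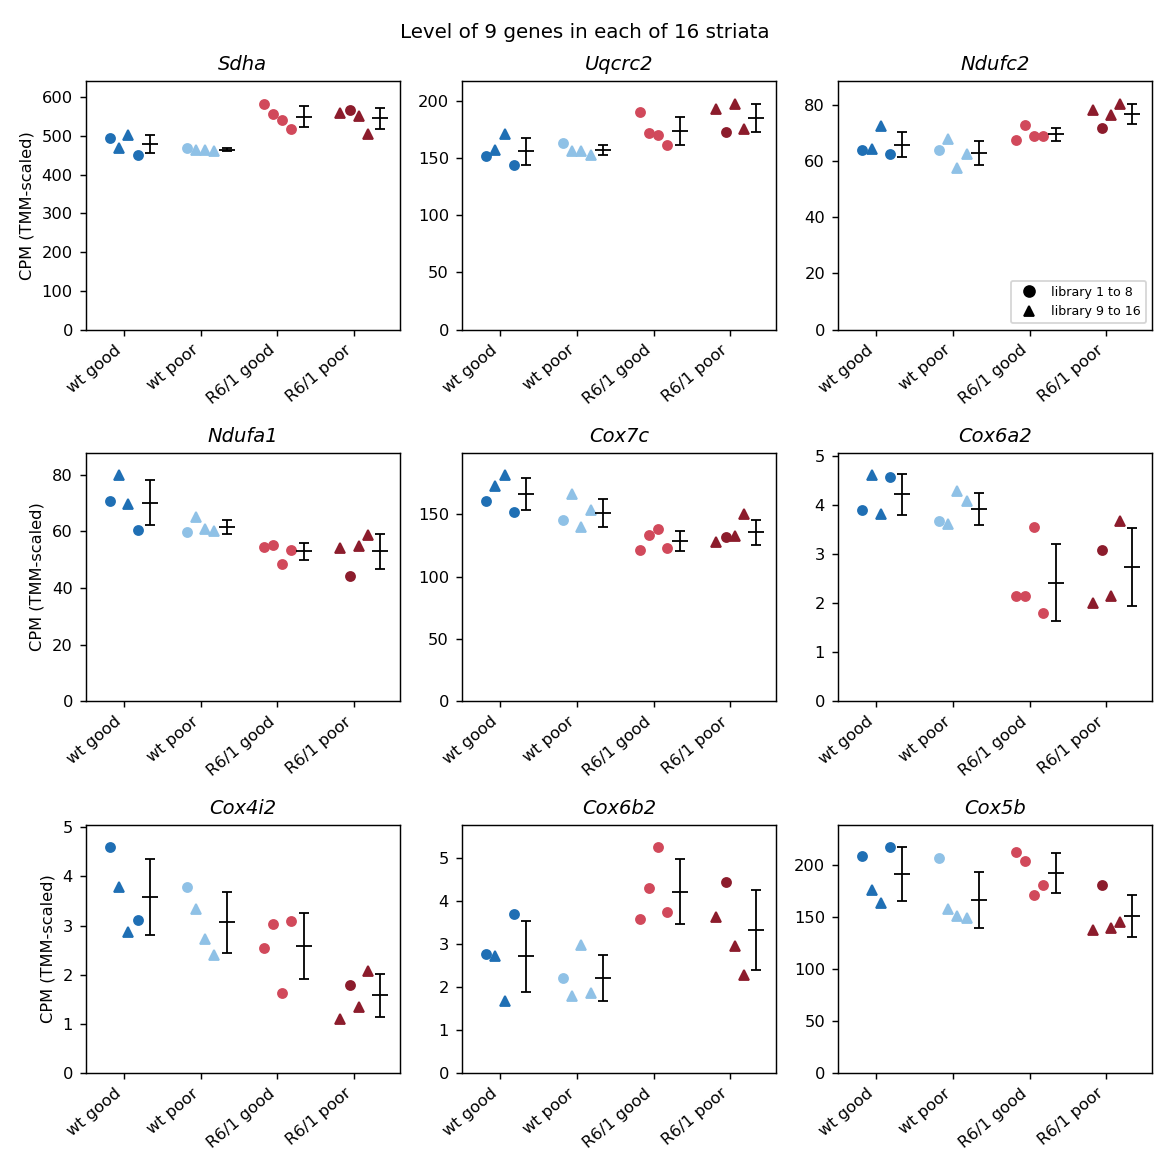
Level of 9 genes in CPM (y axis, from 0) in each mouse of the 4 groups, with circles for libraries 1 to 8, triangles for libraries 9 to 16, and black bars for the group mean ± SD (n = 4). Sdha and Ndufa1 separate the genotypes without overlap, Cox4i2 is lowest in R6/1 “poor” mice, and Cox5b follows the library set more closely than the genotype.

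In complex V, 5 genes fell and 1 rose. Those with the smallest adjusted p among the 5 were Atp5d, the delta subunit of the central stalk (-0.17 ± 0.057, adjusted p = 0.0297), Atp5j2, the f subunit of the membrane part (-0.14 ± 0.052, adjusted p = 0.0369), and Atp5j, coupling factor 6 (-0.13 ± 0.047, adjusted p = 0.0441). Atp5g1, which with Atp5g2 and Atp5g3 encodes the same c subunit of the rotor, rose (0.17 ± 0.063, adjusted p = 0.0436). Atp5g2 (-0.028 ± 0.045, adjusted p = 0.67) and Atp5g3 (0.021 ± 0.041, adjusted p = 0.73) did not pass the threshold. The alpha and beta subunits of the catalytic head, the most abundant genes of the set in CPM, were also not past it: Atp5a1 at 0.058 ± 0.038 (adjusted p = 0.26) and Atp5b at 0.060 ± 0.041 (adjusted p = 0.28). Both were named after their values were seen.

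Among the factors, Atp5s rose (0.19 ± 0.061, adjusted p = 0.0205). Ndufaf8, an assembly factor of complex I, fell (-0.29 ± 0.095, adjusted p = 0.0227), as did Cox7a2l, a protein of respiratory supercomplexes (-0.12 ± 0.042, adjusted p = 0.0327). A further list of 44 assembly genes without these name stems had 43 tested genes, of which 11 rose and 3 fell, and a median log2 fold change of 0.053, beside 17.2% higher and 17.0% lower over all genes. Of the 7 for complex I, 4 rose, among them Acad9 (0.20 ± 0.041, adjusted p = 0.000905) and Tmem186 (0.25 ± 0.060, adjusted p = 0.00288). For complex IV, 5 of 22 rose, among them Cox19, which handles copper in the intermembrane space (0.29 ± 0.058, adjusted p = 0.000917), and Surf1, mutated in a form of Leigh syndrome (0.21 ± 0.044, adjusted p = 0.00118). Lyrm7 and Ttc19, both assembly factors of complex III, fell by 0.33 ± 0.066 (adjusted p = 0.000753) and 0.17 ± 0.051 (adjusted p = 0.0135) on the log2 scale, and Atpaf1, of complex V, fell by 0.12 ± 0.046 (adjusted p = 0.0451).

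The next comparisons set each R6/1 group against all 8 wild-type mice. They share their controls. In R6/1 “good” mice 4 of the 92 genes rose and 9 fell, against 24.6% of all genes in either direction. In R6/1 “poor” mice 4 rose and 12 fell, against 28.5%. At an unadjusted p under 0.05 there were 22 in “good” and 25 in “poor” mice, against 37.3% and 39.7%, and 53 and 52 values were negative, against 48.4% and 49.5%. Groups without overlap were found for 7 genes in each comparison, against 15.2% and 16.1% of all genes. The medians over the 92 genes were -0.020 and -0.033, and those of complex IV -0.067 and -0.21. The R6/1 “good” libraries were all numbered 1 to 8, and 3 of the 4 “poor” ones 9 to 16. In wild-type mice alone, Cox5b, Cox6a1 and Cox4i1 were higher in libraries 1 to 8 without overlap, while the other complex IV genes overlapped. The part of the library set in these complex IV medians was not tested. With the library set as a term, 1 gene rose and 9 fell in “good” mice, against 20.5% of all genes in either direction. Without R6/1 “good” replicate 1, 3 or 4 the number that fell was 5, 4 or 4, and without replicate 1 or 3 the number that rose was 2. Without R6/1 “poor” replicate 1, 2 or 3 the number that fell in “poor” mice was 5, 6 or 4.

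Sdha rose in both groups, by 0.22 ± 0.051 (adjusted p = 0.00605) in “good” and 0.21 ± 0.052 (adjusted p = 0.00824) in “poor” mice. Ndufa1 (-0.31 ± 0.080 and -0.31 ± 0.091), Ndufb10 (-0.20 ± 0.063 and -0.26 ± 0.060), Uqcr11 (-0.29 ± 0.080 and -0.34 ± 0.097), Cox7c (-0.30 ± 0.071 and -0.23 ± 0.074) and Cox6a2 (-0.76 ± 0.17 and -0.58 ± 0.16) fell in both, each with an adjusted p of at most 0.0304. These 6 genes passed the threshold in both comparisons. With the library set as a term all 6 passed in “poor” mice, and in “good” mice Ndufa1 (-0.26 ± 0.097, adjusted p = 0.0709) and Cox7c (-0.24 ± 0.085, adjusted p = 0.0552) did not.

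Further genes passed it in 1 of the 2 comparisons, which does not show that the groups differ. In “good” mice alone, Cox6b2 (0.77 ± 0.20, adjusted p = 0.0123), Atp5g1 (0.26 ± 0.071, adjusted p = 0.016) and Ndufaf3, an assembly factor of complex I (0.22 ± 0.073, adjusted p = 0.0395), rose. Ndufb4, an accessory subunit of complex I (-0.24 ± 0.067, adjusted p = 0.0192), Ndufa13, another such subunit (-0.19 ± 0.061, adjusted p = 0.036), and Atp5d (-0.20 ± 0.064, adjusted p = 0.0355) fell. All 4 R6/1 “good” libraries were in the set 1 to 8. Of the 13 genes called in “good” mice, 6 kept their call with the library set as a term, 7 did not, and 4 others passed. The genes that rose did not pass with that term, apart from Sdha: Cox6b2 was at 0.54 ± 0.25 (adjusted p = 0.14), Atp5g1 at 0.15 ± 0.076 (adjusted p = 0.19) and Ndufaf3 at 0.10 ± 0.075 (adjusted p = 0.38). In wild-type mice alone, Atp5g1 (158 to 168 against 127 to 155 CPM) and Ndufaf3 (31.6 to 34.1 against 26.2 to 30.8 CPM) were higher in libraries 1 to 8 without overlap. Ndufb4 was at -0.16 ± 0.076 (adjusted p = 0.17) with the term. Atp5k, the e subunit of ATP synthase, was also lower in “good” mice (-0.32 ± 0.096, adjusted p = 0.0249). It was, however, at 56.6 to 77.9 CPM in all libraries numbered 1 to 8 and at 81.1 to 104 CPM in all those numbered 9 to 16, and with the library set as a term its value was -0.13 ± 0.089 (adjusted p = 0.36). With the same term Atp5k passed in “poor” mice (-0.22 ± 0.076, adjusted p = 0.0430) and in all R6/1 mice (-0.16 ± 0.062, adjusted p = 0.0451). Without the term it passed in neither (adjusted p = 0.34 and 0.0546).

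In “poor” mice alone, Ndufs3 (-0.32 ± 0.069, adjusted p = 0.00314), Cox4i1 (-0.24 ± 0.072, adjusted p = 0.0244), Cox7a2 (-0.21 ± 0.066, adjusted p = 0.0273), Atp5mpl, a small proteolipid of ATP synthase (-0.22 ± 0.072, adjusted p = 0.0323), Atp5e, its epsilon subunit (-0.26 ± 0.088, adjusted p = 0.0348), and Cox7a2l (-0.14 ± 0.050, adjusted p = 0.0473) fell. Of these, Ndufs3 and Cox4i1 also passed in “good” mice with the library set as a term. Ndufc2 (0.26 ± 0.061, adjusted p = 0.00613), Uqcrc2 (0.24 ± 0.058, adjusted p = 0.00675) and Atp5s (0.21 ± 0.077, adjusted p = 0.0494) rose in “poor” mice. The largest value was that of Cox4i2, an isoform of complex IV subunit 4 known from lung and from the pericytes of brain vessels, at -1.07 ± 0.21 (adjusted p = 0.00182).

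Cox4i2 was at 4.59, 3.78, 2.87 and 3.12 CPM in wild-type “good”, 3.78, 3.34, 2.74 and 2.40 in wild-type “poor”, 2.55, 3.04, 1.64 and 3.10 in R6/1 “good”, and 1.11, 1.79, 1.34 and 2.09 in R6/1 “poor” mice. All 4 R6/1 “poor” mice were below all 8 wild-type mice, while 3 of the 4 R6/1 “good” mice lay within the wild-type range. In libraries 9 to 16 alone the value for “poor” mice was -0.99 ± 0.24 (adjusted p = 0.0208), and with the library set as a term it also passed the threshold (adjusted p = 0.00179). The summed level of 7 pericyte and smooth muscle markers was 228 to 259 CPM in wild-type mice, 236 to 260 in R6/1 “good” mice and 183 to 223 in R6/1 “poor” mice. Of the 7 markers, 6 fell in R6/1 “poor” mice and 0 in R6/1 “good” mice, and none had a median count of 0. Ndufa4l2, a relative of the complex IV subunit Ndufa4 that also marks brain pericytes, was at 1.55 to 2.17 CPM in R6/1 “poor”, 2.28 to 2.99 in R6/1 “good” and 1.82 to 2.97 in wild-type mice. Its R6/1 “poor” range overlapped the wild-type range, and it did not pass the threshold against wild-type mice. The summed level of 5 endothelial markers was 278 to 327 CPM in wild-type, 248 to 267 in R6/1 “good” and 207 to 262 in R6/1 “poor” mice. The part of vessel cells in the values of both isoforms was not tested.

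Setting the “poor” R6/1 mice directly against the “good” ones asked whether the pathway followed performance. None of the 92 genes passed the threshold with edgeR or DESeq2, which gave no adjusted p for Cox7a1. Over all 19363 genes, 0 passed with edgeR, while DESeq2 called 227 higher and 129 lower (1.84%). At an unadjusted p under 0.05 there were 16 of the 92, against 15.5% of all genes, and 46 values were positive and 46 negative, against 50.2% negative over all genes. The even split did not hold with the library set as a term, where 62 were negative with a median of -0.034. That term rests on the 1 R6/1 “poor” mouse in libraries 1 to 8. Without it the median was -0.00074. The gene with the smallest p of each complex was Ndufa13, an accessory subunit of complex I (0.20 ± 0.060, adjusted p = 0.25), Sdhc (0.08 ± 0.066, adjusted p = 0.58), Cycs (0.18 ± 0.083, adjusted p = 0.33), Cox5b (-0.33 ± 0.10, adjusted p = 0.25), Atp5g1 (-0.16 ± 0.066, adjusted p = 0.29) and, among the factors, Ndufaf5 (0.10 ± 0.073, adjusted p = 0.52).

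Cox5b, a zinc-binding subunit of complex IV, was at 209, 176, 164 and 217 CPM in wild-type “good”, 207, 158, 152 and 149 in wild-type “poor”, 213, 204, 171 and 181 in R6/1 “good”, and 138, 181, 140 and 146 in R6/1 “poor” mice. The levels moved with the library set: 171 to 217 CPM in libraries 1 to 8 and 138 to 176 in libraries 9 to 16, in both genotypes. With the library set as a term, which here rests on the 1 R6/1 “poor” mouse of the first set, its value between the R6/1 groups was -0.077 ± 0.12 (adjusted p = 1.00). The R6/1 “poor” mouse from the first set, at 181 CPM, lay within the range of the R6/1 “good” mice. Between the genotypes, Cox5b had a log2 fold change of -0.059 ± 0.11 (adjusted p = 0.70), and with the library set as a term of -0.16 ± 0.050 (adjusted p = 0.0148). Over the wild-type mice alone, 15 of the 92 genes had no overlap between the library sets, 11 of them higher in libraries 1 to 8, against 10.9% of all genes. Cox6a1 was among them, at 237 to 259 CPM in the first set and 180 to 216 in the second.

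Ndufa13 was at 126, 127, 125 and 117 CPM in R6/1 “good” and 135, 135, 142 and 149 in R6/1 “poor” mice. These groups did not overlap, which held for 5 of the 92 genes and for 6.45% of all genes. In the wild-type mice it lay between 128 and 154 CPM, so that the “good” R6/1 mice were the group apart. With the library set as a term its value was 0.14 ± 0.090 (adjusted p = 1.00).

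Wild-type “poor” mice were set against wild-type “good” mice to see whether performance went with these genes without the transgene. None of the 92 passed the threshold, and 0 of all genes did, with edgeR. DESeq2 called none of the 92 either. The values nevertheless leaned 1 way: 85 of the 92 were negative, against 49.6% of all genes, with a median of -0.10 (all genes 0.001), and 13 had an unadjusted p under 0.05, against 2.44%. No overlap between the groups was found for 7, against 1.78%. The smallest p of each complex belonged to Ndufa2 (-0.20 ± 0.069), Sdha (-0.042 ± 0.065), Uqcr10 (-0.20 ± 0.076), Cox8a (-0.21 ± 0.075), Atp5e (-0.25 ± 0.087) and the factor Ndufaf2 (-0.15 ± 0.12), each with an adjusted p of 1.00. In libraries 9 to 16 alone (2 “good” and 3 “poor” mice) 88 were negative with a median of -0.16, and in libraries 1 to 8 alone (2 “good” and 1 “poor”) 54 were negative with a median of -0.016. With the library set as a term over all 8 mice, 87 were negative with a median of -0.11.

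**Figure D3:**
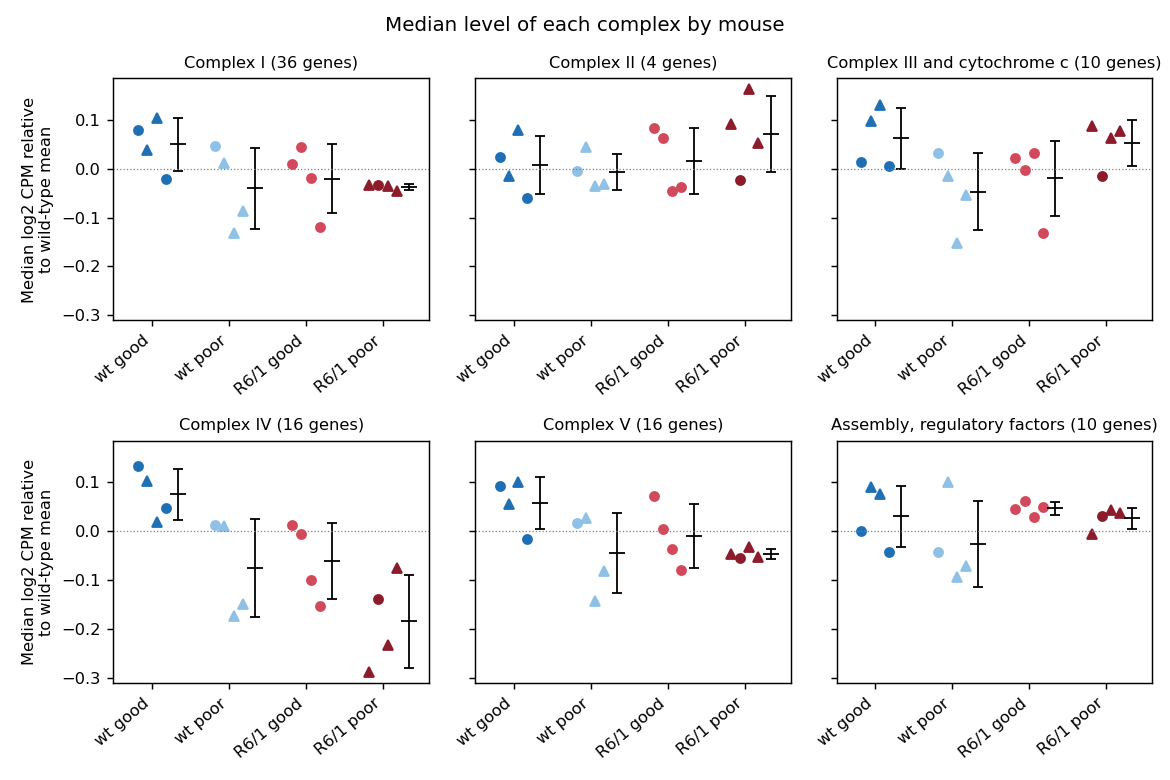
Median over the genes of each complex of the log2 CPM after subtracting the mean of the 8 wild-type mice (y axis), for each mouse of the 4 groups, with circles for libraries 1 to 8, triangles for libraries 9 to 16, and bars for the group mean ± SD (n = 4). In every panel the mean of wild-type “good” mice is above that of wild-type “poor” mice, for complex II by little (0.0073 against -0.0072). The mean of complex IV is lowest in R6/1 “poor” mice, 3 of which are in libraries 9 to 16.

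This spread among the wild-type mice set the reference for the R6/1 values. The median of the 92 genes, as log2 CPM after subtracting the mean of the wild-type mice, was -0.020 to 0.093 in wild-type “good”, -0.13 to 0.026 in wild-type “poor”, -0.11 to 0.029 in R6/1 “good” and -0.052 to -0.0066 in R6/1 “poor” mice. All R6/1 mice lay within the range of the 8 wild-type mice. For complex IV the medians were 0.018 to 0.13, -0.17 to 0.013, -0.15 to 0.013 and -0.29 to -0.074 in the same order. The R6/1 “poor” mice lay below the wild-type “good” mice and overlapped the wild-type “poor” mice. When each R6/1 group was set against the wild-type mice of the same performance, 0 genes rose and 9 fell in “good” mice (median -0.075), against 13.9% of all genes in either direction, and 3 rose and 2 fell in “poor” mice (median 0.026), against 19.3%.

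The interaction of genotype and performance, the difference of the “poor” to “good” change between the genotypes, passed the threshold for none of the 92 genes with edgeR or DESeq2. There were 5 with an unadjusted p under 0.05, against 5.77% of all genes. The median was 0.080 (all genes -0.012), and 15 of the 92 were negative, against 52.4% of all genes. This is not a separate observation: it sets the R6/1 values (median -0.00074) against the wild-type values (median -0.10) already given. With the library set as a term, 9 were negative with a median of 0.067. By complex, the smallest p belonged to Ndufa13 (0.27 ± 0.091), Sdhb (0.08 ± 0.079), Uqcr10 (0.20 ± 0.10), Cox5a (0.27 ± 0.11), Atp5d (0.22 ± 0.10) and Ndufaf5 (0.19 ± 0.11), with adjusted p from 0.83 to 0.87.

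The genes that fell and those that rose differed in the length of their transcripts. In the 8 R6/1 against the 8 wild-type mice, the 18 that fell had principal transcripts of 419 to 1410 nt (median 736), and the 7 that rose 585 to 4715 nt (median 1599). Of the 32 genes under 700 nt, 24 were negative with a median of -0.076, and of the 23 from 1500 nt, 7 were negative with a median of 0.059. Between these, of the 37 genes from 700 to 1500 nt, 24 were negative with a median of -0.042. In that middle bin 0 rose and 11 fell, against 2 and 7 under 700 nt. Other protein-coding genes with an average of at least 4 on the log2 CPM scale behaved alike at the short end: 65 of 103 under 700 nt were negative (median -0.074), against 3676 of 8152 from 1500 nt (median 0.028). They did not in the middle bin, where 391 of 859 were negative (median 0.019), 188 rose and 167 fell. In wild-type “poor” against “good” mice, all 32 short genes of the pathway were negative (median -0.14), as were 91 of the 103 other short genes (median -0.12), while the medians from 1500 nt were -0.042 and 0.00085.

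Across the 92 genes, Pearson’s r of log2 length with the log2 fold change was 0.36 for R6/1 against wild-type and 0.56 for wild-type “poor” against “good” mice (Spearman’s rho 0.45 and 0.57). Over 9114 other genes r was -0.011 and 0.27. Genes are not independent replicates, and these points share their libraries. By mouse, the median of the 103 other short genes was 0.0037 to 0.068 in wild-type “good”, -0.14 to 0.054 in wild-type “poor”, -0.089 to 0.021 in R6/1 “good” and -0.13 to -0.024 in R6/1 “poor” mice. The 32 short genes of the pathway moved with them, at 0.032 to 0.11, -0.18 to 0.021, -0.16 to -0.0080 and -0.094 to -0.043. None of the complex IV genes had a principal transcript over 1001 nt. The part of transcript length in the values of single genes or of a complex was not tested. For Atp5g1 the annotated principal transcript (4715 nt) is far longer than its coding part (408 nt). The same held for other long genes, among them Ndufb2 (4371 and 315 nt), Ndufaf4 (3632 and 519), Ndufab1 (3479 and 468), Sdhc (3171 and 507) and Cycs (3123 and 315). These annotated lengths also enter the levels per kilobase.

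**Figure D4:**
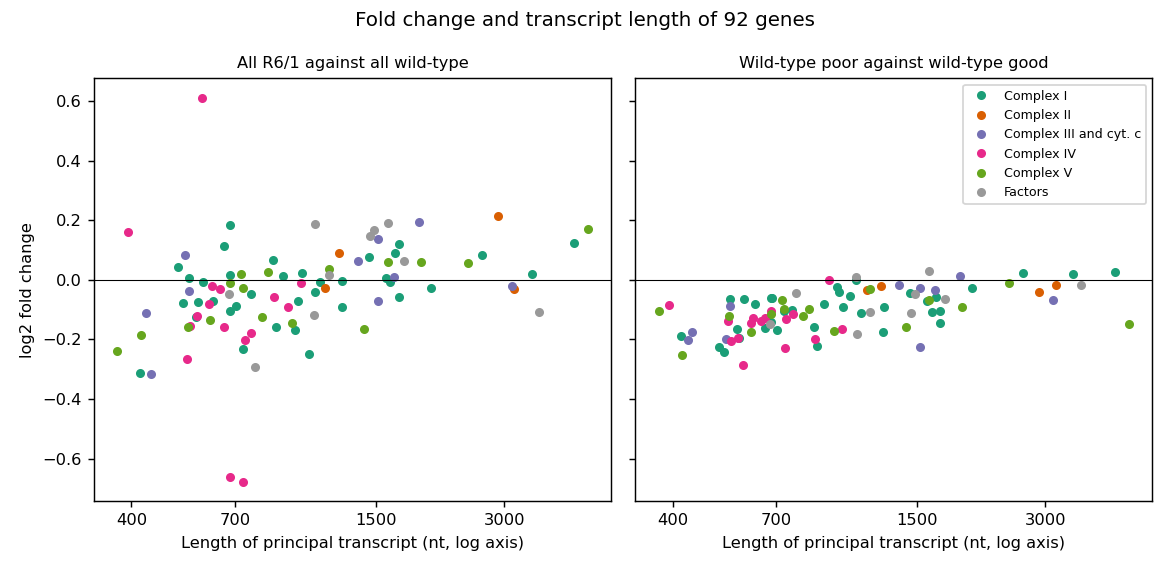
Log2 fold change of the 92 genes (y axis) against the length of the principal transcript in nt (x axis, log scale), for all R6/1 against all wild-type mice (left) and wild-type “poor” against “good” mice (right), with colours for the complexes. On the right all 32 genes under 700 nt lie below 0, and on the left the genes from 1500 nt have a median of 0.059.

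Some of these genes share exonic sequence with another gene, and whether counting used the strand is not stated. An overlapping partner was annotated for 32 of the 92, on the other strand for 29 and on the same strand alone for 3, and for 19 its median count was at least 10% of the member’s own. Among the genes described above, this touched Atp5d (median 2765 counts, with Cbarp at 3853), Cox6c (5041, Vps13b 1676), Cox4i1 (10350.5, Emc8 1639), Atp5j (3267, Gabpa 819), Ndufaf3 (671.5, Impdh2 980), Ndufa2 (1279, Tmco6 237), Cox5a (706.5, Gm26631 105.5) and Ndufa4l2 (45, Shmt2 493). For Cox6a2 the partner Itgad had a median of 7 counts, and Sdha, Ndufa1, Cox7c, Uqcr11, Cox4i2 and Cox6b2 had no such partner. Of 13 look-alike entries that are not protein-coding, the highest were Ndufb1-ps, annotated as a long non-coding RNA (median 1375 counts, log2 fold change -0.17, adjusted p = 0.29), and the processed pseudogenes Ndufab1-ps (98 counts) and Ndufb4c (52 counts). How reads that match more than 1 copy were handled is not stated.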

How the data were processed

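RNA was measured in 16 striata, 1 library per mouse (TruSeq stranded mRNA, paired-end). The authors deposited raw counts per Ensembl gene after alignment with TopHat 1.0.1 to GRCm38. For the counter, its strand setting and its annotation: not given in the sources used here. Symbols, transcript lengths and overlaps came from GENCODE, promoters from RefSeq. The 19363 genes that reached 10 counts in 4 or more libraries were fitted with edgeR 4.0.16 in R 4.3.3, using TMM scaling, the quasi-likelihood test and Benjamini-Hochberg adjustment over all of them, with a threshold of 0.05. Each fit held only the mice compared, and CPM are TMM-scaled. The SE of a log2 fold change was derived from the test, as its absolute value divided by the square root of the F statistic. The script was tested on simulated data. Alternatives were DESeq2 1.42.0, RLE scaling, other count limits, the library set (1 to 8 or 9 to 16), wild-type mice of the same performance, 1 fit of all groups, the replicate number as a block and leaving out each mouse.

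The members and lists were chosen with earlier results of these data known. Genes named were, per comparison and complex, up to 3 in each direction with the smallest adjusted p, or the smallest p where none passed, plus paralogous isoforms, complex II, genes at the count limit and up to 4 other assembly genes per direction. Others named for their values were chosen after those were seen. The 24 pairs of libraries within groups differed by more than counting noise, so each library counted as 1 replicate. Total counts limit the precision of scarce genes most.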

Additional observations from a re-analysis of the deposited data

Results flagged for a closer look

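In 112 groups of 4 mice tested, 4 held a mouse set apart from the other 3 by Dixon’s test at the 95% level, and chance gives about 1 in 20. Ndufc2 was at 72.39 CPM in wild-type “good” replicate 3, above the rest of its group. Cox4i1 was at 451.2 CPM in R6/1 “good” replicate 4, below the rest. Wild-type “poor” replicate 1 was high for Cox6a1 (249.2 CPM) and Cox5b (206.9 CPM), and it was the 1 wild-type “poor” library numbered 1 to 8.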

How the results depend on the processing

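Of the 25 genes that passed in the 8 R6/1 against the 8 wild-type mice, 14 kept their call whichever of the 16 mice was left out, 1 (Ndufs3) kept it under all 25 alternatives, and none changed sign. Without a filter on low counts 14 genes passed, 9 of them lower, against 14.1% of the 40830 genes then tested. With the library set as a term 30 genes passed, against 38.9% of all genes, and 23 of the 25 kept their call. In libraries 1 to 8 alone 15 passed, 1 of them higher, against 22.6% of all genes. Libraries 9 to 16 hold no R6/1 “good” mouse, so that set alone compares R6/1 “poor” with wild-type mice. In it 2 rose and 2 fell, against 17.6% in either direction. Of the 92 genes, 62 were negative in libraries 1 to 8 alone and 46 in libraries 9 to 16 alone. In R6/1 “good” mice 10 genes passed with the library set as a term, 1 of them higher, against 20.5% of all genes. In libraries 1 to 8 alone 11 passed (18.6% of all genes), and against wild-type “good” mice 9 did (13.9%), 0 of them higher in either. For R6/1 “poor” mice, libraries 9 to 16 alone are the same fit as above, with 2 higher and 2 lower (17.6% of all genes). Libraries 1 to 8 hold 1 R6/1 “poor” mouse, assumed to vary like the others. That fit, with a median of -0.086, says nothing about stability. Set against wild-type “poor” mice, the R6/1 “poor” mice had 5 genes past the threshold, 2 of them lower, beside 19.3% of all genes. The median was 0.026. The median of wild-type “poor” against “good” mice was -0.016 in libraries 1 to 8 alone, which hold 1 wild-type “poor” mouse, and -0.11 with the library set as a term over all 8 mice.

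Leaving out each mouse gave 4 to 8 genes that rose and 11 to 22 that fell in all R6/1 mice, 2 to 4 and 4 to 11 in R6/1 “good”, and 3 to 4 and 4 to 16 in R6/1 “poor” mice. The wild-type median then ranged from -0.13 to -0.073.

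Same-numbered mice of different groups gave no sign of deviating together (24 pairs, r from -0.31 to 0.20, median -0.00076). The median of the 72 other pairs was 0.012. The labels do not give the litter or cohort of a mouse, so pairing by either was not tested. With the replicate number as a block 8 genes rose and 14 fell in all R6/1 mice, against 32.6% of all genes in either direction.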
